A study of Mus musculus with 15 samples.

Results

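The 10 genes described here encode the TSC complex, its target RHEB and the subunits and inhibitors of the mTOR complexes. They were chosen by symbol, with earlier results of these data known, and all 10 were found among the 24891 genes of the expression table. TSC1, TSC2 and TBC1D7 form the TSC complex, which keeps the small GTPase RHEB in its inactive state. Active RHEB switches on mTORC1, the complex of the kinase MTOR with RPTOR and MLST8, which drives protein synthesis and cell growth and is restrained by DEPTOR and AKT1S1 (PRAS40). MTOR and MLST8 also sit in mTORC2, which is defined by RICTOR and phosphorylates AKT. Loss of either TSC1 or TSC2 leaves mTORC1 active and gives rise to renal tumors in mice and in people with tuberous sclerosis complex. The activity of these proteins is set largely by phosphorylation and binding, which an RNA measurement does not show.

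RNA sequencing covered 15 libraries, 3 in each of 5 groups. The tumors grew under the skin of wild-type male C57BL/6J mice that were 6 weeks old at injection, from 105K cells, a Tsc2-deficient renal tumor line first taken from a Tsc2+/− animal. Every group carried a lentiviral shRNA in a mixed pool of cells, not in a single clone. The control was the non-target sh-NC, and the shRNAs numbered (1) and (2) were directed at B7-H3 (gene CD276). Whole tumors, called bulk, were sequenced for the control and for shRNA (1). Sorted tumor cells are those that magnetic beads against other cell types did not hold back, and they were sequenced for the control and for both B7-H3 shRNAs. Thus all 15 libraries share the Tsc2-deficient line, and no library of Tsc2-expressing tumor cells was included. The comparisons ask whether B7-H3 shRNAs were accompanied by changes in this pathway, and how whole tumors differed from the tumor cells sorted from them. The paper describes its expression tests as made on 3 biological samples. The labels number the replicates without saying that each came from its own mouse, so p-values measure the spread between these samples, which may be partly technical.

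Values are FPKM (fragments counted per length of transcript and per sequenced library size) divided by 1 scaling factor for each library, called scaled FPKM below, and they compare genes per unit of length. Read totals are not in the table, and the spacing of the lowest values gave library depths from 0.468 to 1 times that of sorted sh-NC replicate 1. MIR6236, a gene for a small RNA, took between 6.01% and 79.7% of the FPKM total, which is why a scaling factor was used. All 6 epithelial and renal markers (KRT8, KRT18, EPCAM, CDH1, PAX8 and PAX2) were present, with summed levels of 632 to 925 scaled FPKM in bulk tumors and 689 to 1251 in sorted cells. The 10 leukocyte markers summed to 173 to 320 in bulk tumors and to 26.3 to 89.7 in sorted cells, except for 196 in the library labelled sorted sh-B7-H3 (2) replicate 1. That library also stood apart for the 5 endothelial markers, at 18.3 against 0.251 to 0.666 in the other sorted libraries and 20.3 to 35.2 in bulk tumors.

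CD276, the shRNA target, was at 34.1, 20.1 and 17.3 scaled FPKM in sorted sh-NC cells and at 7.32, 14 and 11.5 in sorted sh-B7-H3 (1) cells. Its log2 difference was −1.04 ± 0.29 (SE; limma, adjusted p = 0.0547). In cells labelled sorted sh-B7-H3 (2) it was at 23.4, 25.5 and 25.8, and in tumors labelled bulk sh-B7-H3 (1) it was at 22.4, 17.9 and 24.5 beside 20.8, 23.3 and 23.6 in bulk sh-NC. The log2 differences from sh-NC were 0.12 ± 0.23 (limma, adjusted p = 0.775) and −0.07 ± 0.13 (0.709), so a lower CD276 RNA level was not detected in either group, and every direction given for them below is that of libraries so labelled.

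Positions are those of RefSeq on GRCm38.p6, the assembly that the submitters' processing notes call mm10. Tsc2 lies on chromosome 17 from 24595816 to 24632676 on the minus strand, between Pkd1 and Nthl1. Pkd1 ends inside Tsc2 and shares 699 bases with it, and whether the authors counted reads by strand is not given in the sources used here, so reads in those bases cannot be told apart. Nthl1 starts 3 bases beyond the start of Tsc2, on the other strand. Mlst8 is on the same chromosome, 116701 bases away. Other members also overlap neighbours, among them Mtor with Angptl7 (5282 bases) and Mlst8 with Bricd5 (1922 bases).

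Sequences at or upstream of the gene starts are shown for 4 of the 6 members called between whole tumors and sorted cells labelled sh-B7-H3 (1): TSC2 and RHEB, and MTOR and RPTOR, which differ in the motifs searched. DEPTOR, with the largest difference there, had no window. In the first line, 30 bases on the minus strand at chr17:24632664-24632693, the capitals are the bases between the Nthl1 and Tsc2 spans. The letters before them lie inside Nthl1 and those after them inside Tsc2.
Tsc2: gcacgcgaaactacAATtcccagagagctc
In the other lines, capitals mark matches on either strand to the CCAAT box (CCAAT), the GC box (GGGCGG), an E-box (CACGTG), the interferon-gamma-activated site (TTCNNNGAA) or the ETS core (CCGGAA). The Rheb line is chr5:24842440-24842469 on the minus strand, and the Mtor and Rptor lines are chr4:148448332-148448581 and chr11:119602655-119602904 on the plus strand.
Rheb: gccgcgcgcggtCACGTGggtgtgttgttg
Mtor: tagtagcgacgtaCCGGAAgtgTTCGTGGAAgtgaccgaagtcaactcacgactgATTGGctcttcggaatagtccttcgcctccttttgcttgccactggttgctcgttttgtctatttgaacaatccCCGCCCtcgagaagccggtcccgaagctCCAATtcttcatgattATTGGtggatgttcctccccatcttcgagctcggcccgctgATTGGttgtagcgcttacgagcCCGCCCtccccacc
Rptor: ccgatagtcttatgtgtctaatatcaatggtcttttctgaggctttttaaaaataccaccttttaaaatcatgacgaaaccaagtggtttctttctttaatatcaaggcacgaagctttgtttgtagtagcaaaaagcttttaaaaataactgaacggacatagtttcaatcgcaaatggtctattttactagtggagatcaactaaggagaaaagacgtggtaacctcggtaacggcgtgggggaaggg
The Mtor window held 4 CCAAT matches, 2 GGGCGG matches and 1 match each to TTCNNNGAA and CCGGAA, whereas the Rptor window held no match to any of the 5 motifs. Of the 9 members with an upstream window of 250 bases, 2 held CCAAT (33.8% of all 32851 windows), 4 GGGCGG (32.7%), 2 CACGTG (6.02%, Rheb and Tbc1d7), 1 TTCNNNGAA (7.02%) and 5 CCGGAA (12%). A match describes the letters and is not a binding site.

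RHEB was the most abundant member, with a mean of 69.3 scaled FPKM over the 15 libraries (range 51.2 to 101). AKT1S1, the PRAS40 inhibitor, followed at 26.3 (20.3 to 37.6), and the ranges of RHEB, AKT1S1 and the next gene did not overlap. TBC1D7, the small additional subunit of the TSC complex, was at 7.30 (6.35 to 8.62), and RPTOR, the scaffold that recruits mTORC1 substrates, at 6.45 (4.39 to 8.03). The other members lay close together: MLST8 at 4.22, TSC1 at 4.02, MTOR at 3.50, RICTOR at 3.36, TSC2 at 3.19 and DEPTOR at 2.43. Each of these overlapped its neighbours in the order. Relative spread over the libraries was smallest for TBC1D7 (coefficient of variation 11.4%) and largest for TSC2 (33.4%) and DEPTOR (33.2%).

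**Figure D1:**
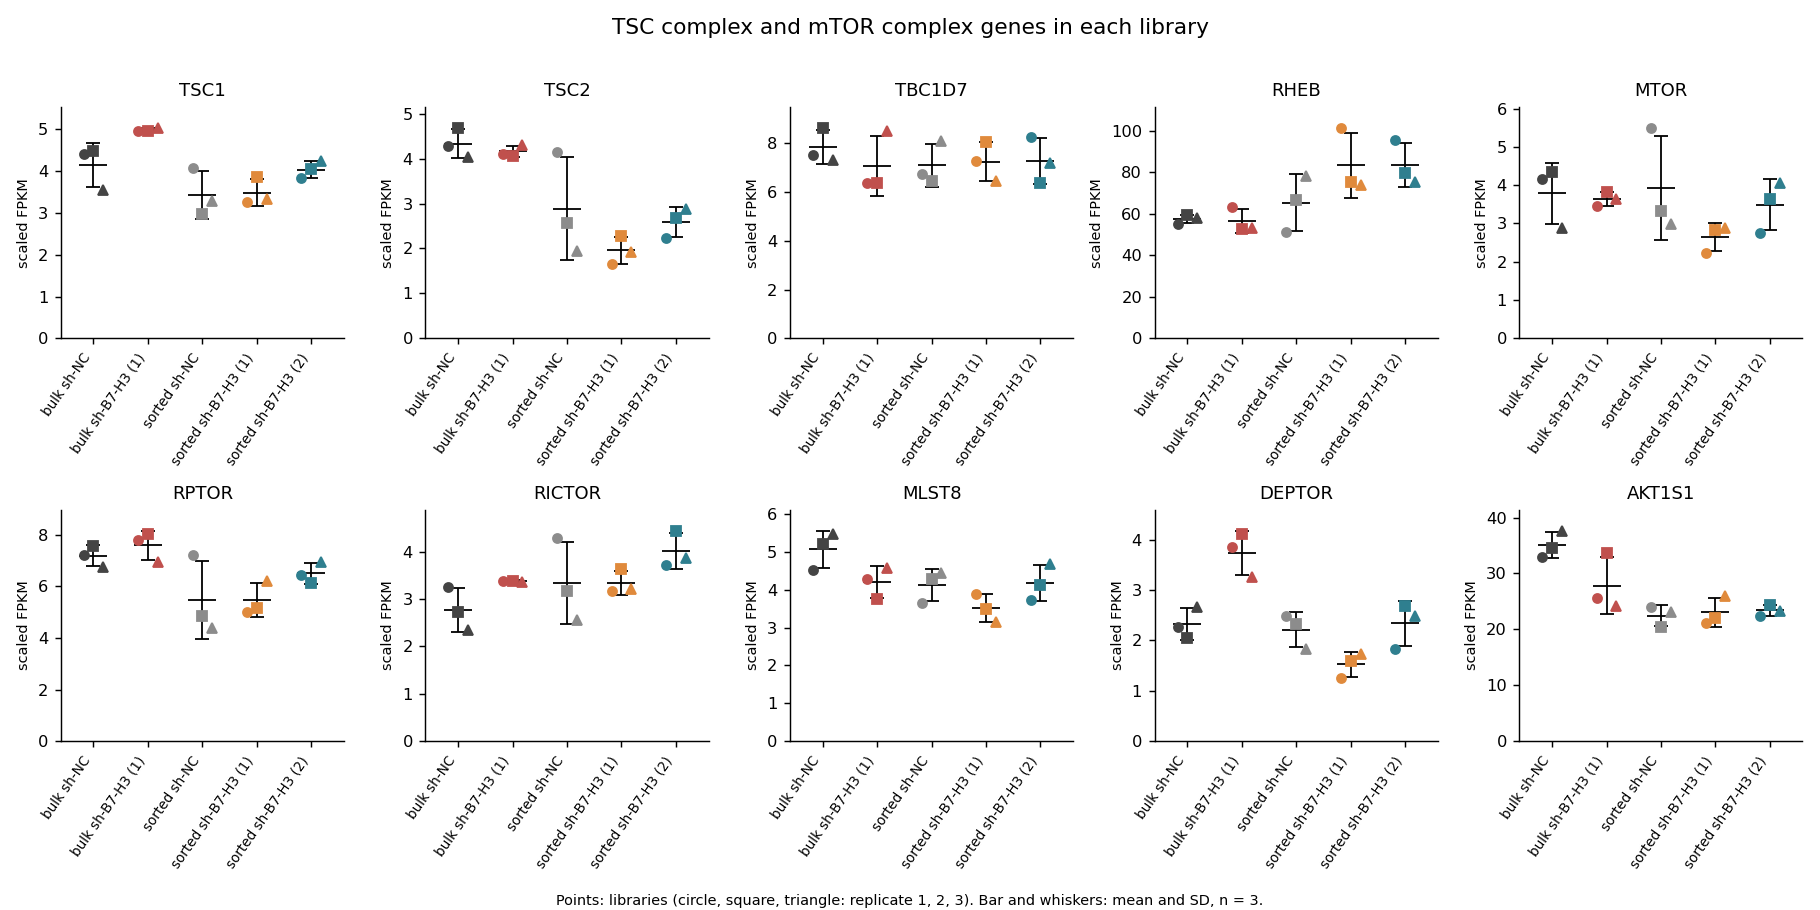
Scaled FPKM of the 10 genes in each of the 15 libraries, by group, with 1 panel for each gene, each on its own linear axis from 0. Points are libraries, and bars with whiskers are the mean and SD (n = 3). TSC2 sat between 4.03 and 4.68 in the 6 bulk libraries and between 1.66 and 4.15 in the 9 sorted libraries.

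TSC2 RNA was present in every sorted library, although the tumor cells are Tsc2-deficient. It was at 4.15, 2.57 and 1.94 scaled FPKM in sorted sh-NC cells, 1.66, 2.28 and 1.92 in sorted sh-B7-H3 (1) cells and 2.23, 2.68 and 2.88 in cells labelled sorted sh-B7-H3 (2). Sorted sh-NC replicate 1 was the single sorted library that reached the levels of bulk tumors, which were 4.28, 4.68 and 4.03 with sh-NC and 4.11, 4.06 and 4.31 in those labelled sh-B7-H3 (1). The table gives 1 value for each gene, so it does not show which exons were read or whether the product is intact. TSC1, the partner that stabilizes TSC2, ranged from 2.97 to 4.24 in sorted cells, a narrower range than that of TSC2, and from 3.55 to 5.03 in bulk tumors, a wider one.

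Sorted sh-NC replicate 1 stood apart from the other sh-NC cells in several long transcripts of this pathway. It held the highest value of its group for TSC1 (4.07 against 2.97 and 3.28), TSC2, MTOR (5.49 against 3.32 and 2.97), RPTOR (7.21 against 4.86 and 4.39) and RICTOR (4.28 against 3.16 and 2.56), and the lowest for RHEB (51.2 against 66.7 and 78.3). DEPTOR was close to replicate 2 (2.49 against 2.32 and 1.83), and AKT1S1 was also highest in this library (23.9 against 20.3 and 23.1). TBC1D7 lay between the others (6.73 against 6.46 and 8.09), and MLST8 was lowest (3.65 against 4.29 and 4.43). Over all genes, those with a longest transcript of 6000 bases or more deviated by a median of 0.22 on the log2 scale in this library, and by −0.12 and −0.28 in the other sh-NC cells. The longest coding transcripts of RICTOR (9312 bases), MTOR (8564), DEPTOR (8547), TSC1 (7702), RPTOR (6594) and TSC2 (6266) are in that class, and those of AKT1S1 (1812), RHEB (1784) and TBC1D7 (1246) are short. The part of transcript length in the results below was not tested as a cause. Values after subtracting, in each library, the median deviation of genes of like length are given as length-adjusted, an alternative chosen after seeing the data.

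With sh-B7-H3 (1) in sorted cells, none of the 10 genes passed the test, and their log2 differences from sh-NC ran from −0.41 to 0.35. Over all genes tested, 13.4% passed, 9.03% higher and 4.37% lower (limma on log2 of scaled FPKM + 1, adjusted p below 0.05), the smallest adjusted p among the members was 0.157, and at an unadjusted p below 0.05 there was 1 member, DEPTOR. DEPTOR, the inhibitor bound to both mTOR complexes, was at 2.49, 2.32 and 1.83 scaled FPKM with sh-NC and at 1.25, 1.60 and 1.73 with sh-B7-H3 (1). These groups did not overlap, and the log2 difference was −0.35 ± 0.14 (SE; 95% interval −0.66 to −0.03). MTOR also did not overlap, at 5.49, 3.32 and 2.97 against 2.23, 2.82 and 2.88, with a difference of −0.41 ± 0.20 (−0.86 to 0.05; adjusted p = 0.264). Groups did not overlap for 31.1% of all genes tested, 16.7% higher and 14.4% lower. Without sorted sh-NC replicate 1 the MTOR difference was −0.19 (adjusted p = 0.384), and after length adjustment it was −0.36 and passed (adjusted p = 0.0488). The difference of TSC2 was −0.36 ± 0.21 (−0.84 to 0.12; adjusted p = 0.355), and −0.14 without the same library. RHEB differed by 0.35 ± 0.20 (−0.11 to 0.81; adjusted p = 0.348), and by 0.19 (adjusted p = 0.515) without that library, while TSC1, TBC1D7, RPTOR, RICTOR and AKT1S1 lay between 0.02 and 0.03 and MLST8 at −0.18.

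In cells labelled sorted sh-B7-H3 (2), which are compared with the same sh-NC libraries, no member passed either (limma; 19.1% of all genes did, 11.7% higher and 7.45% lower), and none did at an unadjusted p below 0.05. No member had groups that did not overlap, against 37.1% of all genes (20% higher and 17.1% lower). RHEB was at 95.5, 79.5 and 75.5 scaled FPKM beside 51.2, 66.7 and 78.3, a log2 difference of 0.36 ± 0.18 (−0.07 to 0.79; adjusted p = 0.226), which was 0.20 (adjusted p = 0.319) without sorted sh-NC replicate 1. TSC2 differed by −0.08 ± 0.21 (−0.56 to 0.41), an interval that includes a difference of the size seen with sh-B7-H3 (1). RPTOR differed by 0.23 ± 0.18 (adjusted p = 0.420), and without sorted sh-NC replicate 1 by 0.42, which passed (adjusted p = 0.0292).

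Between the B7-H3 shRNAs in sorted cells, again no member passed (limma; 3.4% of all genes did, 1.76% higher and 1.64% lower). All 10 log2 differences of sh-B7-H3 (1) minus (2) were below 0, with a median of −0.20 beside 0.00 over all genes. Genes with transcripts of 6000 bases or more had a median of −0.14 in this comparison. After length adjustment all 10 differences were still below 0, from −0.21 (DEPTOR) to −0.02 (RICTOR). At an unadjusted p below 0.05 there was 1 member, DEPTOR, at 1.83, 2.69 and 2.49 scaled FPKM in cells labelled sorted sh-B7-H3 (2), a difference of −0.40 ± 0.14 (−0.72 to −0.07; adjusted p = 0.161). Replicate numbers were taken to pair these libraries from correlations in the same data (0.196 to 0.224), as the labels do not say what they mark. With the replicate block DEPTOR passed (adjusted p = 0.0466), together with 16.6% of all genes. Without the library labelled sorted sh-B7-H3 (2) replicate 1, which carried host cell markers, the difference was −0.51 (adjusted p = 0.0468), and after length adjustment it was −0.21 (adjusted p = 0.307). DEPTOR and RICTOR had groups that did not overlap, against 27.2% of all genes (13.3% higher and 13.9% lower). RICTOR, the subunit that defines mTORC2, was at 3.16, 3.63 and 3.22 beside 3.72, 4.44 and 3.86.

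In bulk tumors DEPTOR was the member that rose in those labelled sh-B7-H3 (1). It was at 3.86, 4.11 and 3.26 scaled FPKM beside 2.27, 2.05 and 2.67 in bulk sh-NC, so the groups did not overlap, and the log2 difference was 0.51 ± 0.12 (SE; 0.22 to 0.80; limma, adjusted p = 0.0302). This was 1 of 10 members, against 21.3% of all genes tested (12.8% higher and 8.51% lower). With bulk sh-NC replicate 1, 2 or 3 left out the difference was 0.50, 0.45 and 0.58 and no longer passed (adjusted p = 0.0766, 0.10 and 0.0591), nor did it without the tumor labelled sh-B7-H3 (1) replicate 1 (0.49, adjusted p = 0.124). Some host markers moved with these groups: fibroblast markers summed to 90.4, 172 and 146 scaled FPKM in bulk sh-NC and 655, 524 and 278 in the tumors labelled sh-B7-H3 (1), and Y-linked genes of the male host to 3.13, 3.39 and 3.65 beside 5.92, 6.29 and 5.14, neither with overlap. Skeletal muscle markers did not overlap either (2.54, 19.1 and 4.75 beside 30.3, 669 and 186). Leukocyte markers (173, 216 and 255 beside 279, 320 and 222) and endothelial markers (20.3, 27.6 and 35.0 beside 35.2, 34.1 and 25.3) overlapped. The part of host cells in the DEPTOR difference was not tested. After length adjustment the difference was 0.18 (adjusted p = 0.438), and genes with transcripts of 6000 bases or more had a median of 0.27. TSC1 (4.97, 4.97 and 5.03 beside 4.42, 4.48 and 3.55) and RICTOR (3.38, 3.39 and 3.36 beside 3.25, 2.72 and 2.33) also did not overlap, without passing, and such groups were seen for 44.5% of all genes (24.5% higher and 20% lower). Their differences were 0.22 each (adjusted p = 0.168 and 0.198), −0.01 and −0.11 after length adjustment. AKT1S1 differed by −0.34 ± 0.14 (adjusted p = 0.115) and passed without the tumor labelled sh-B7-H3 (1) replicate 2, at −0.48 (adjusted p = 0.0144). That tumor had a MIR6236 share of 74.4% and 669 scaled FPKM of skeletal muscle markers, beside 30.3 and 186 in the others of its group, and the part of either in the AKT1S1 value was not tested. TSC2 differed by −0.05 ± 0.10 (−0.27 to 0.18) and MTOR by −0.03 ± 0.14 (−0.37 to 0.30).

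An interaction term tested whether shRNA (1) went with other changes in sorted cells than in bulk tumors (sorted minus bulk). No member passed, and 0.464% of all genes did (0.249% higher and 0.215% lower). DEPTOR had the lowest p of the members, the only one below 0.05 unadjusted, with a difference of −0.86 ± 0.18 (SE; −1.25 to −0.46; limma, adjusted p = 0.0756), made of 0.51 in bulk and −0.35 in sorted cells. After length adjustment it was −0.48 (adjusted p = 0.341).

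**Figure D2:**
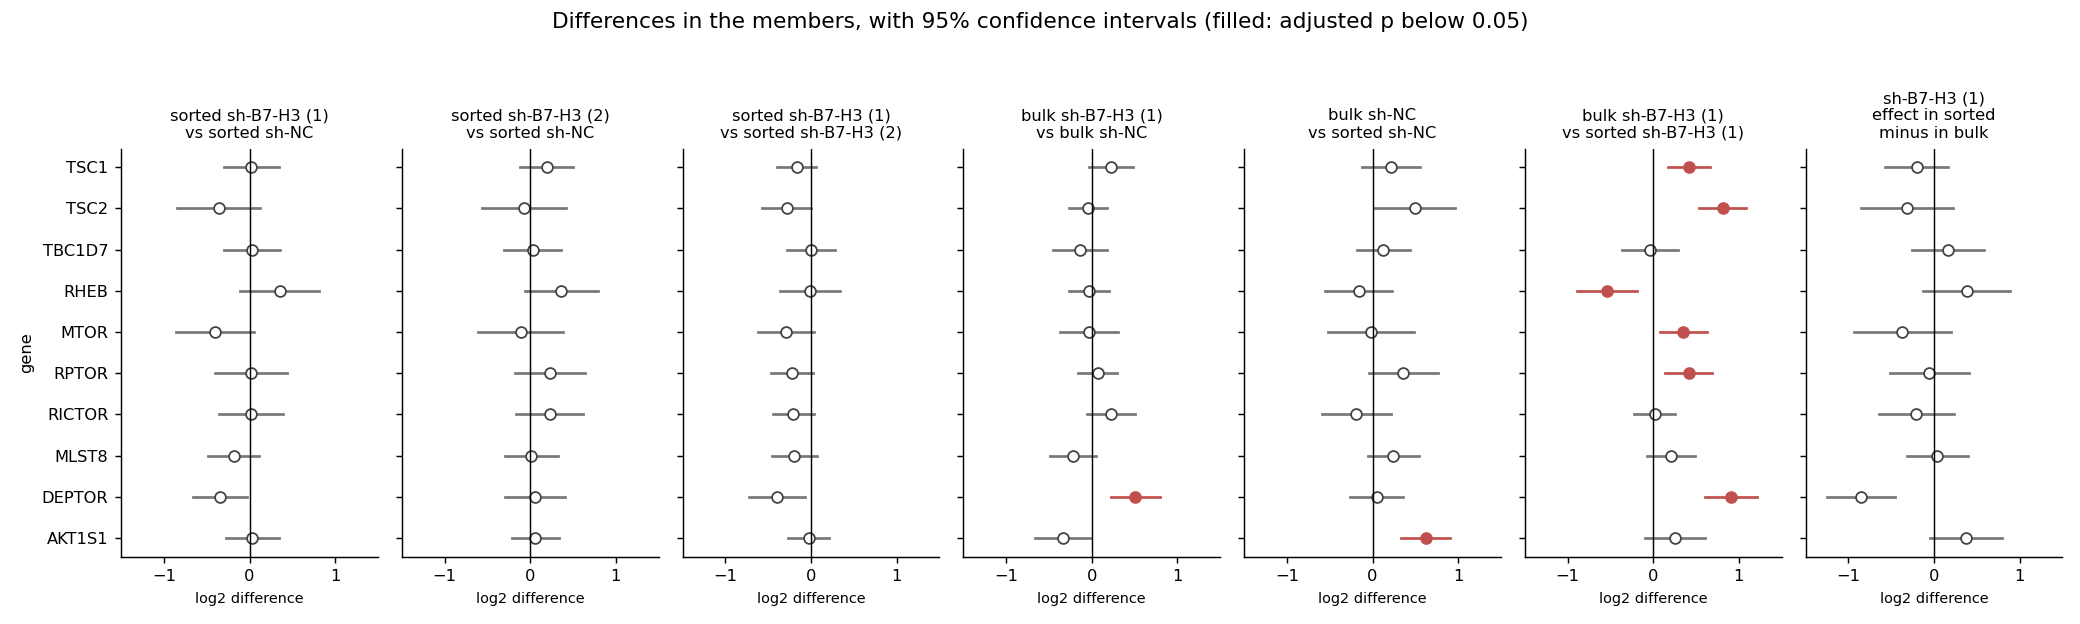
Log2 differences of scaled FPKM + 1 for the 10 genes in 7 comparisons, on a common axis, with limma's 95% confidence intervals. Filled points have an adjusted p below 0.05 over all genes tested: DEPTOR in bulk, AKT1S1 between the sh-NC materials, and 6 genes between the sh-B7-H3 (1) materials.

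Whole tumors differed from sorted cells most clearly in the TSC2 and DEPTOR values of the libraries labelled sh-B7-H3 (1). There, 6 of the 10 members passed, against 38.2% of all genes (21.1% higher and 17.1% lower in bulk), and the same 6 had groups that did not overlap, against 54.5% (29.6% higher and 25% lower). TSC2 was at 4.11, 4.06 and 4.31 scaled FPKM in bulk tumors and at 1.66, 2.28 and 1.92 in sorted cells, 0.81 ± 0.12 higher on the log2 scale (SE; 0.54 to 1.08; limma, adjusted p = 0.00294). DEPTOR was at 3.86, 4.11 and 3.26 beside 1.25, 1.60 and 1.73, 0.91 ± 0.13 higher (0.61 to 1.21; adjusted p = 0.00266). RHEB, which the TSC complex inactivates, went the other way, at 63.2, 52.9 and 53.4 beside 101, 75.1 and 73.7, a difference of −0.54 ± 0.15 (−0.89 to −0.19; adjusted p = 0.0270). TSC1 rose by 0.42 ± 0.10 (adjusted p = 0.0185), RPTOR by 0.41 ± 0.12 (0.0284) and MTOR by 0.35 ± 0.12 (0.0483). RICTOR differed by 0.01 and TBC1D7 by −0.04.

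Transcript length moved with part of this result. In the same comparison the median log2 difference of all genes was −0.20 for transcripts under 2000 bases and 0.31 for those of 6000 bases or more, of which 40.8% were called higher in bulk. After length adjustment TSC2 was still higher by 0.59 (adjusted p = 0.00594) and DEPTOR by 0.56 (0.0153), and RHEB was lower by 0.44 on the log2 scale (adjusted p = 0.0480), whereas TSC1 (0.12), RPTOR (0.11) and MTOR (0.00) no longer passed. RICTOR then was lower in bulk, at −0.33 (adjusted p = 0.0354). TSC2 and DEPTOR passed with each library of the comparison left out. RHEB lay at −0.62, −0.50 and −0.50 without bulk replicate 1, 2 or 3 (adjusted p = 0.0542, 0.0527 and 0.0584) and at −0.40 without sorted replicate 1 (0.0577), and passed in none of these fits. MTOR lost its call whichever library was left out, at 0.27 to 0.40 (adjusted p = 0.0758 to 0.115). RPTOR lost its call without bulk replicates 1 and 2 (0.40 and 0.38, adjusted p = 0.103 and 0.0595) and sorted replicates 1 and 2 (0.36 and 0.38, adjusted p = 0.0807 and 0.0865). TSC1 lost it without bulk replicate 1 (0.42, adjusted p = 0.0723) and sorted replicate 3 (0.39, adjusted p = 0.0642).

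**Figure D3:**
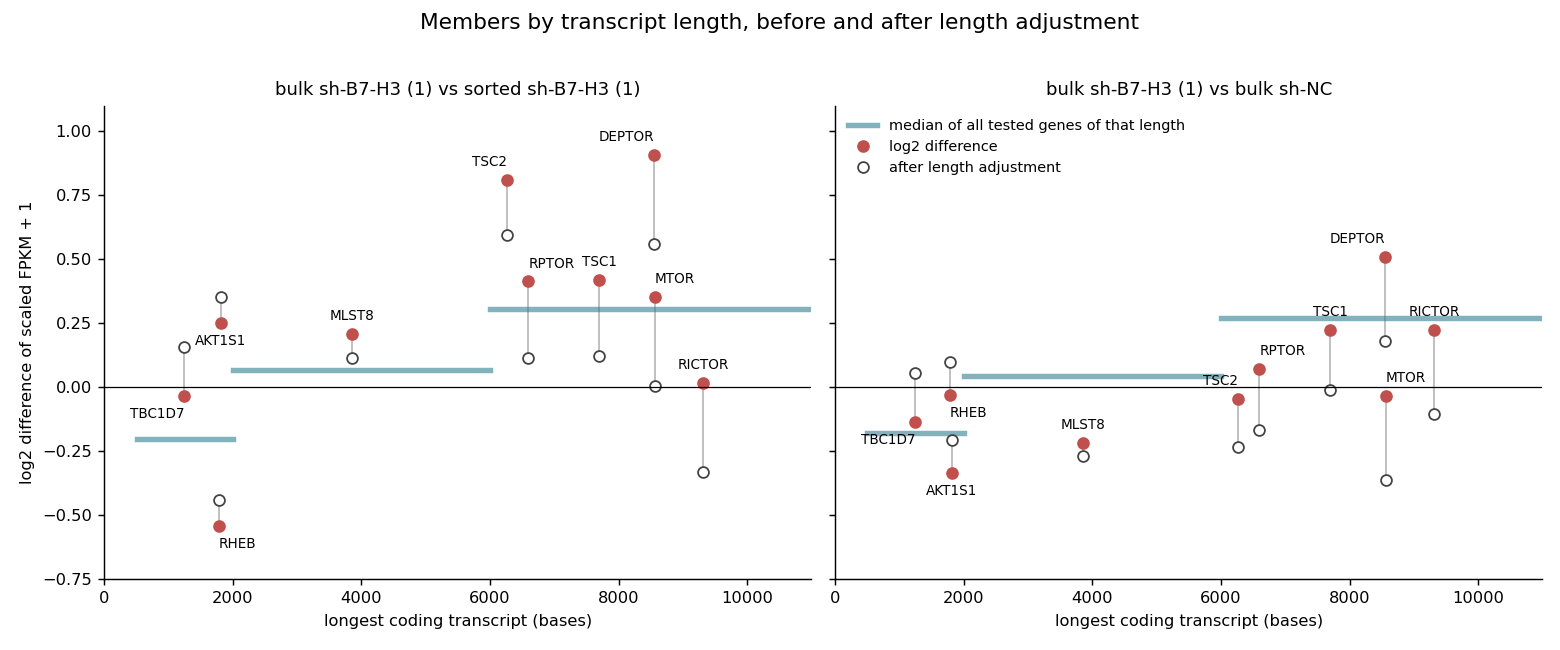
Log2 differences of the members against the length of their longest coding transcript in bases, for bulk against sorted libraries labelled sh-B7-H3 (1) and for the tumors labelled bulk sh-B7-H3 (1) relative to bulk sh-NC. Filled points are the values as measured, open points those after length adjustment, and horizontal bars the medians of all tested genes of that length class. Among the filled points of the first panel, TSC2 and DEPTOR lie furthest above the bar at 0.31. TSC1, RPTOR and MTOR lie less far above it and RICTOR below it, and RHEB lies below the bar at −0.20.

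With sh-NC, a comparison that shares no library with the one above, AKT1S1 was the member that passed, at 33.0, 34.5 and 37.6 scaled FPKM in bulk tumors and 23.9, 20.3 and 23.1 in sorted cells. It was 0.62 ± 0.12 higher in bulk (SE; 0.34 to 0.91; limma, adjusted p = 0.0149), 1 of 10 members against 16.9% of all genes (10.4% higher and 6.48% lower). Without bulk sh-NC replicate 1, 2 or 3 or sorted sh-NC replicate 2 the difference was 0.66, 0.63, 0.57 and 0.56 and no longer passed (adjusted p = 0.0824, 0.124, 0.102 and 0.0816), and with FPKM as deposited the difference was 0.48 (adjusted p = 0.606). In the libraries labelled sh-B7-H3 (1) the AKT1S1 difference was 0.25 ± 0.15 (adjusted p = 0.213). TSC2 was higher by 0.49 ± 0.20 with sh-NC, without passing (0.02 to 0.97; adjusted p = 0.134), and passed at 0.72 without sorted sh-NC replicate 1 (adjusted p = 0.00726) and at 0.47 after length adjustment (0.0348). RPTOR, at 0.36 ± 0.17 (adjusted p = 0.190), likewise passed without that library (0.54, adjusted p = 0.00994). DEPTOR differed by 0.05 ± 0.13 (−0.26 to 0.36). AKT1S1 and MLST8 had groups that did not overlap, against 38.2% of all genes (21.3% higher and 16.9% lower).

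Markers of host cells moved with the material. All 5 endothelial markers summed to 20.3 to 35.2 scaled FPKM in bulk tumors and to at most 0.666 in sorted cells apart from the library labelled sh-B7-H3 (2) replicate 1, and 4 Y-linked genes of the male host to 3.13 to 6.29 against 0.278 to 0.890, again apart from that library (4.90). The 7 fibroblast markers summed to 90.4 to 655 in bulk tumors and 36.0 to 154 in sorted cells. The 6 skeletal muscle markers went the other way with sh-NC, at 2.54, 19.1 and 4.75 in bulk tumors and 67.8, 50.3 and 96.3 in sorted cells, while those labelled sh-B7-H3 (1) overlapped (30.3, 669 and 186 in bulk, 28.3, 74.1 and 44.1 sorted). Of the leukocyte markers, 3 of 10 were at 0 in every sorted sh-NC library. The part of host cells in the TSC2, DEPTOR, RHEB and AKT1S1 differences was not tested, and in bulk tumors fewer cells of a type and less RNA per cell cannot be told apart. The library labelled sorted sh-B7-H3 (2) replicate 1, whose leukocyte and endothelial sums came near or within the range of bulk tumors, had 2.23 scaled FPKM of TSC2, the lowest of its group. That is 1 library, and the part of host cells or of transcript length in its TSC2 value was not tested. Neighbours of TSC2 moved with it in part: PKD1 differed by 0.98 ± 0.17 between the materials labelled sh-B7-H3 (1) (adjusted p = 0.00521), and NTHL1 by 0.31 ± 0.13 (adjusted p = 0.0830).

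Ratios between members within a library do not depend on the scaling. They do not remove differences that go with transcript length, which is 1784 bases for RHEB and 8564 for MTOR. The ratios were chosen after their values were seen and are given without a test. TSC2 was at 0.969 to 1.14 times TSC1 in bulk sh-NC tumors, at 0.816 to 0.856 times in those labelled bulk sh-B7-H3 (1), at 1.02, 0.868 and 0.590 times in sorted sh-NC cells, and at 0.508 to 0.590 and 0.582 to 0.680 times in cells with sh-B7-H3 (1) and those labelled (2). RPTOR, which defines mTORC1, was at 2.07 to 2.89 times RICTOR, which defines mTORC2, in the 6 bulk tumors and at 1.38 to 1.93 times in the 9 sorted libraries, without overlap. DEPTOR was at 0.894 to 1.12 times MTOR in tumors labelled bulk sh-B7-H3 (1) and at 0.563 to 0.60 times in sorted sh-B7-H3 (1) cells, whereas bulk sh-NC (0.472 to 0.928) and sorted sh-NC (0.453 to 0.70) overlapped. RHEB was at 13.3 to 20.2 times MTOR in the 6 bulk tumors and at 9.33, 20.1 and 26.3 times in sorted sh-NC cells, the lowest of these being replicate 1, and it reached 45.5 times in sorted sh-B7-H3 (1) replicate 1. Genes with transcripts of 6000 bases or more deviated by a median of 0.22 in the former library and −0.20 in the latter. The part of length in the ratios was not tested.

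**Figure D4:**
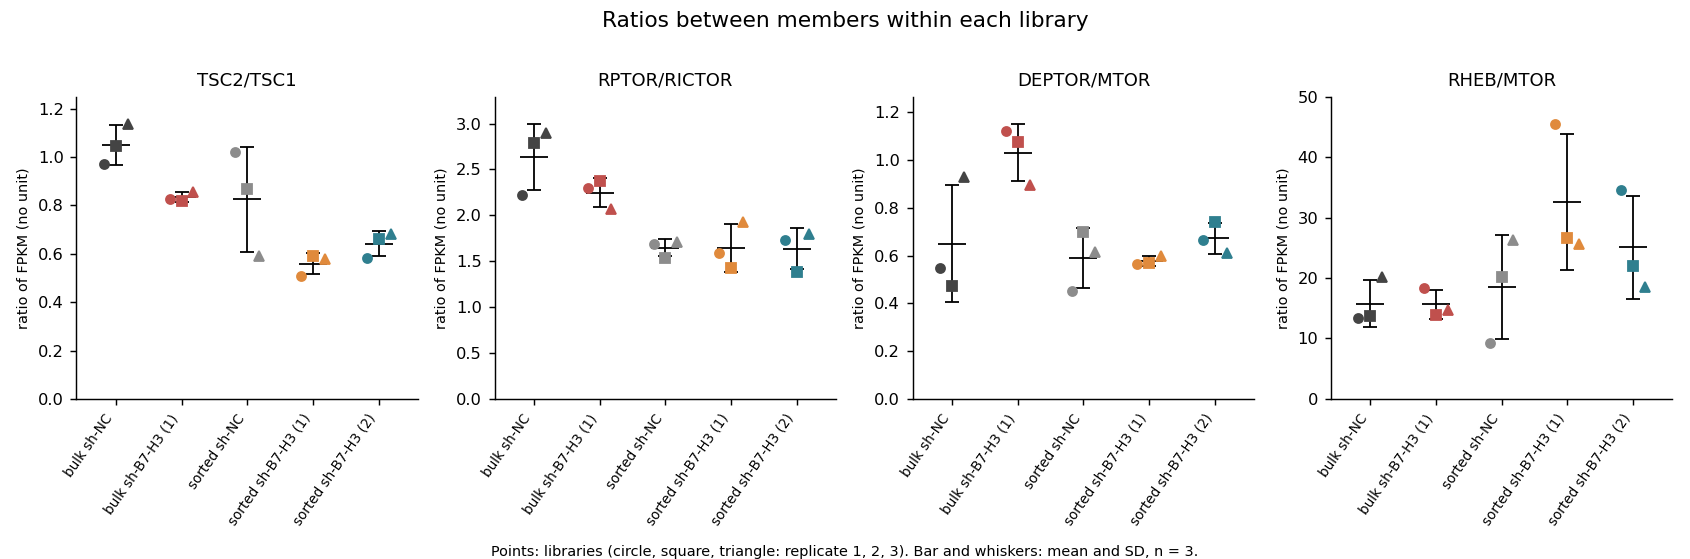
Ratios of FPKM between pairs of members within each library, by group, on linear axes from 0. Points are libraries, and bars with whiskers are the mean and SD (n = 3). The ratio of RPTOR to RICTOR was 2.07 or more in all bulk tumors and 1.93 or less in all sorted libraries.

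The genes whose levels followed TSC2 most closely over the 15 libraries, among 8243 genes averaging 5 scaled FPKM or more, were RNF220 (Pearson's r of log2 values 0.98), STK11 (0.97), MAST2 (0.97), PTK2B (0.96) and MYO9B (0.96). STK11 encodes LKB1, the kinase that activates AMPK. For DEPTOR they were LACC1 (0.90), PBXIP1 (0.90), CRIM1 (0.89), LUZP1 (0.88) and SHARPIN (0.87). Between members r ranged from 0.82 (TSC1 with RPTOR) to −0.88 (TSC2 with RHEB). The libraries share groups, material and length effects, so these values describe the pattern only.

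Around the complexes, 72 further pathway genes in 8 lists were examined, of which 68 to 71 were tested in each comparison. The lists cover subunits of mTORC2, assembly factors, growth factor and energy inputs, Rag GTPases with Ragulator, the GATOR and KICSTOR complexes, amino acid sensors with folliculin, substrates and effectors, and ATF4 with its amino acid targets. In sorted cells 3 of 68 passed with sh-B7-H3 (1) and 9 of 68 in those labelled (2), all of them lower, against 4.37% and 7.45% of all genes called lower. RRAGC, the Rag GTPase that helps to bring mTORC1 to the lysosome, was at 61.2, 66.2 and 65.3 scaled FPKM with sh-NC, 46.5, 44.7 and 41.8 with sh-B7-H3 (1) and 41.4, 43.3 and 41.8 in cells labelled (2). Both B7-H3 groups lay below sh-NC without overlap, with log2 differences of −0.53 ± 0.12 (SE; limma, adjusted p = 0.0242) and −0.59 ± 0.11 (adjusted p = 0.00841). SLC7A11, the cystine transporter and an ATF4 target, fell from 4.41, 3.39 and 4.51 to 1.05, 1.45 and 1.43, and to 1.1, 0.937 and 1.01 in cells labelled (2). CHAC1, which degrades glutathione, fell by 0.75 and 0.76 on the log2 scale (adjusted p = 0.00765 and 0.00398), although the whole ATF4 list had 2 and 3 of 11 genes lower, with medians of −0.27 and −0.12. PDCD4, an inhibitor of translation that S6 kinase marks for destruction, separated the shRNAs, at 18.2, 24.1 and 21.4 with sh-B7-H3 (1) and 11.4, 14.2 and 12.3 in cells labelled (2). It was higher with (1) by 0.70 ± 0.13 (adjusted p = 0.0331), the 1 gene of 68 called between the shRNAs, against 3.4% of all genes (1.76% higher). With sh-NC PDCD4 was at 29.6, 28.2 and 24.5, above both groups. It was lower than with sh-NC in cells labelled (2), at −1.06 ± 0.14 (limma, adjusted p = 0.00131), and did not pass with (1). RRAGA, SESN1 and RPS6KB2 were also lower in cells labelled (2) than with sh-NC, by 0.60 to 0.61 on the log2 scale.

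In bulk tumors labelled sh-B7-H3 (1), 14 of 71 pathway genes passed, 13 of them lower (8.51% of all genes were called lower) and 1 higher (12.8%). The ATF4 list accounted for most, with 8 of 11 genes lower and a median of −0.67 beside 0.02 over all genes. In this comparison, 15.9% of all genes with transcripts under 2000 bases were called lower. Of those of 6000 bases or more, 2.01% were called lower and 27.6% higher. The part of transcript length in the pathway results was not tested. On the log2 scale CHAC1 had the largest fall among the called genes of the list (−0.96 ± 0.22, limma, adjusted p = 0.0255). It went from 20.4, 19.1 and 25.8 scaled FPKM to 8.56, 15.1 and 9.27. MTHFD2, of mitochondrial folate metabolism, had the smallest fall of those called (−0.37). SLC7A11, a low gene whose change this scale understates, was at 1.27, 1.27 and 1.95 with sh-NC. In tumors labelled sh-B7-H3 (1) it was at 0.436, 0.790 and 0.429. EIF4EBP1, the translation repressor 4E-BP1 that mTORC1 phosphorylates, was at 114, 115 and 139 with sh-NC and 56.4, 74.3 and 62.1 in tumors labelled sh-B7-H3 (1) (−0.93 ± 0.14, adjusted p = 0.00666). EIF4EBP2 rose by 0.46 ± 0.09 (adjusted p = 0.0185). RRAGC and RRAGA were lower here as well (−0.34 and −0.41), with NPRL2 (−0.34) of GATOR1 and SEC13 (−0.38) of GATOR2. In the interaction test of shRNA (1), sorted minus bulk, none of the 71 genes passed.

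Between bulk and sorted libraries, 11 of 69 pathway genes passed with sh-NC, 4 higher and 7 lower in bulk (10.4% and 6.48% of all genes), and 29 of 69 in the libraries labelled sh-B7-H3 (1), 7 higher and 22 lower (21.1% and 17.1%). SGK1, a kinase downstream of mTORC2, was lower in bulk in both, at 13.9, 15.2 and 18.6 scaled FPKM beside 31.0, 45.9 and 38.1 with sh-NC (−1.21 ± 0.18; limma, adjusted p = 0.00346) and at a log2 difference of −1.35 ± 0.25 in the other comparison (adjusted p = 0.00681). SESN3, a sestrin that restrains mTORC1, was also lower in both (−0.99 and −0.69; adjusted p = 0.00432 and 0.00377). TFEB (0.61), FLCN (0.50) and TELO2 (0.48), of lysosomal transcription, folliculin and mTOR assembly, were higher in bulk with sh-NC. In the libraries labelled sh-B7-H3 (1), STK11 was higher (0.81 ± 0.12) and DDIT4 (REDD1), which activates the TSC complex under stress, lower (−0.89 ± 0.16), and 7 of 11 ATF4 genes were lower, with PHGDH, the entry enzyme of serine synthesis, at 31.5, 40.5 and 34.4 beside 94.2, 69.2 and 89.8. In that comparison 28.0% of all genes with transcripts under 2000 bases were called lower in bulk. Of those of 6000 bases or more, 40.8% were called higher, and the part of length in the pathway genes was not tested.

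**Figure D5:**
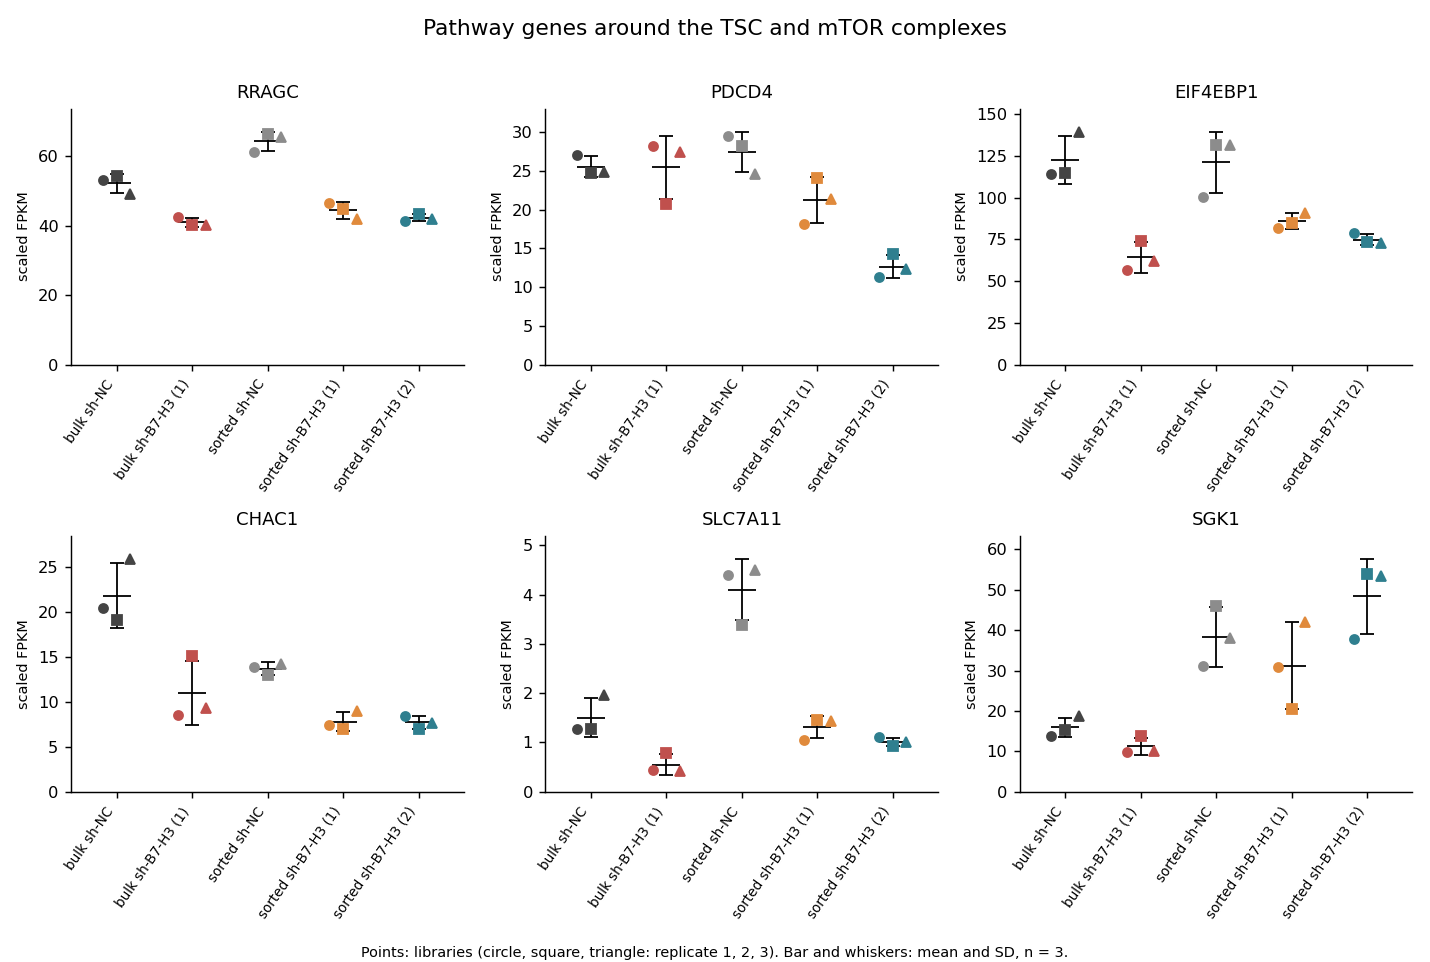
Scaled FPKM of 6 pathway genes outside the complexes in each library, by group, on linear axes from 0. Points are libraries, and bars with whiskers are the mean and SD (n = 3). RRAGC lay at 61.2 to 66.2 in sorted sh-NC cells and at 41.4 to 46.5 in the other 6 sorted libraries, and SGK1 at 9.83 to 18.6 in bulk tumors and 20.5 to 53.9 in sorted cells.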

How the data were processed

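Polyadenylated RNA of 15 libraries (3 for each of 5 groups, from the sample labels) was sequenced by the authors. They deposited a table of FPKM for 24917 entries, named for counts, whose aligner, counting tool and annotation are not given in the sources used here. The labels name the mm10 build. A second deposited table of log2 values for 1000 genes was not used. Kits named in the paper and the labels differ. Symbols turned into dates (26 entries) were left out. FPKM were divided by median-ratio factors (0.647 to 1.18, over 9872 genes), log2(scaled FPKM + 1) was fitted with limma 3.58.1 (R 4.3.3, mean-variance trend) on the groups of each comparison, for genes with at least 1 scaled FPKM in at least 3 libraries, with Benjamini-Hochberg adjustment over all genes tested. Fold changes on this scale understate changes of low genes, and all 10 members passed the filter in every comparison. The fit was tested on simulated data. Replicates correlated over 12202 genes, which are not independent, with r of 0.906 to 0.986. Scripts ran under Python 3.11.15.

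The members were taken by symbol, but members and lists were both chosen with earlier results of these data known. Named genes are the members, CD276, the called genes with the highest and lowest difference of each list, and the 5 genes most like TSC2 and DEPTOR. Chosen outside this rule are PKD1 and NTHL1, neighbours of Tsc2.

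Replicate numbers were taken to pair libraries only between the B7-H3 shRNAs in sorted cells, where deviations of same-numbered libraries correlated at 0.196 to 0.224 in all 3 pairs. The labels do not say what the numbers mark. Alternatives were FPKM as deposited, a pseudocount of 0.1, no filter, the replicate block, all 15 libraries in 1 fit, each library left out, and length-adjusted values (longest GENCODE M21 transcript, available for 98.1% of genes, in 20 bins). Upstream sequences are from RefSeq, which had no window for Deptor.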

Additional observations from a re-analysis of the deposited data

How the results depend on the processing

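The members called numbered 0, 0, 0, 1, 1, 6 and 0 in the 7 comparisons, in this order (sorted (1) and sorted (2) against sh-NC, (1) against (2), bulk (1) against sh-NC, bulk against sorted with sh-NC and with (1), and the interaction). Among single members, 57 of 70 values kept direction and call with FPKM as deposited, 69 with a pseudocount of 0.1, 68 without the filter, 65 with the replicate block, 68 with all 15 libraries in 1 fit, 47 after length adjustment (chosen after seeing the data) and, with a library left out, 399 values (52 changed direction, 24 lost a call and 5 gained one). The cause was not tested in the cases below. In the 5 replicate-matched comparisons where the numbers were not taken to pair libraries, the block shows only a shared number: in 3 of 15 same-numbered pairs a library correlated best with its own number.

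With FPKM as deposited, members called were 0 in bulk, 0 between the sh-NC materials and 3 (TSC2, DEPTOR and RHEB) between those labelled sh-B7-H3 (1). This setting moves the median of all genes by 0.17, 0.20, −0.12, −0.26 and 0.14 in sorted (1), sorted (2), both material comparisons and the interaction, and the share of calls that are higher from 67.4% to 84.2%, 61.1% to 83.2%, 61.6% to 79.8%, 55.2% to 22.8% and 53.6% to 67.2%, and in bulk from 60.1% to 70.2%. The direction reversed for TSC2 (0.093) and MTOR (0.066) in sorted (2), RHEB in bulk (0.0067), DEPTOR between the sh-NC materials (−0.047), RICTOR (−0.22), MLST8 (−0.028) and AKT1S1 (−0.041) between those labelled sh-B7-H3 (1), and RPTOR in the interaction (0.085).

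With the replicate block, 1 member was called between the B7-H3 shRNAs (DEPTOR), 0 in bulk and 3 between the materials labelled sh-B7-H3 (1), and the counts of the other comparisons were the same as without it. Calls over all genes were 915, 1396, 1863, 1413 and 24 with the block and 1496, 2153, 382, 2520 and 56 without it in sorted (1), sorted (2), (1) against (2), bulk and the interaction, and 961, 652 and 128 with FPKM as deposited in bulk, between the sh-NC materials (1927 in the fit reported) and in the interaction. In sorted (1) the share of calls that are higher went to 77.9% with the block. Without the filter 0 members were called in bulk, and with all 15 libraries in 1 fit 2 were called between the sh-NC materials (AKT1S1 and TSC2).

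After length adjustment, members called were 1 in sorted (1), 0 in bulk and 3 between the sh-NC materials, where 51.3% of calls were higher. The direction reversed for TBC1D7 (−0.050) and AKT1S1 (−0.0036) in sorted (1), DEPTOR in sorted (2) (−0.078), TSC1 (−0.013), TBC1D7 (0.053), RHEB (0.10), RPTOR (−0.17) and RICTOR (−0.11) in bulk, MTOR between the sh-NC materials (0.028), TBC1D7 (0.16) and RICTOR (−0.33) between those labelled sh-B7-H3 (1), and TSC1 (0.069), TBC1D7 (−0.085), MTOR (0.0071), RPTOR (0.22) and RICTOR (0.17) in the interaction.

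With each library left out, members called ranged from 0 to 1 in sorted (2) and (1) against (2), 0 to 2 in bulk, 0 to 3 between the sh-NC materials and 2 to 4 between those labelled sh-B7-H3 (1). Values that changed sign ran, in sorted (1), from −0.056 to 0.12 (TSC1), −0.041 to 0.11 (TBC1D7), −0.11 to 0.20 (RPTOR), −0.11 to 0.17 (RICTOR) and −0.052 to 0.093 (AKT1S1). In sorted (2) they ran from −0.26 to 0.15 (TSC2), −0.054 to 0.12 (TBC1D7), −0.25 to 0.10 (MTOR), −0.054 to 0.078 (MLST8), −0.039 to 0.16 (DEPTOR) and −0.0062 to 0.11 (AKT1S1). For (1) against (2) they ran from −0.084 to 0.082 (TBC1D7), −0.16 to 0.088 (RHEB) and −0.11 to 0.033 (AKT1S1), and in bulk from −0.087 to 0.00029 (TSC2), −0.11 to 0.013 (RHEB) and −0.18 to 0.052 (MTOR). Between materials they ran from −0.16 to 0.20 (MTOR) and −0.037 to 0.11 (DEPTOR) with sh-NC and from −0.16 to 0.033 (TBC1D7) and −0.014 to 0.063 (RICTOR) in those labelled sh-B7-H3 (1), and in the interaction from −0.17 to 0.13 (RPTOR) and −0.032 to 0.10 (MLST8). Read totals are not known, so depth gives no interval for low genes such as DEPTOR.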
